A study of Mus musculus with 14 samples.

Results

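Profilin Pfn2 and 7 other genes whose proteins bind or recycle actin monomers were followed across mouse tumours treated with an inhibitor of ACSS2. The 8 genes were the profilins Pfn2 and Pfn1, the cofilins Cfl1 and Cfl2, the thymosins Tmsb4x and Tmsb10 and the cyclase-associated proteins Cap1 and Cap2, out of 51789 genes in the count table. All 8 passed the filter on low counts, as did 17294 genes in all. The set was chosen by the level of Pfn2, which responded differently in the 2 hosts, so the values of Pfn2 are given as a description with no test. The other 7 genes were tested within the whole table, though they too were chosen with earlier results of these data known.

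Cells keep a large pool of unpolymerised actin. Profilin hands ATP-bound monomers to growing filament ends and is the partner of formins and of Ena/VASP proteins, and Pfn2 is best known from the nervous system while Pfn1 is found in most tissues. Thymosin beta proteins hold monomers in reserve. Cofilin severs ageing filaments, and cyclase-associated proteins work with it to return monomers to the pool.

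RNA came from bulk tumours and was read from the 3′ end of polyadenylated transcripts, so a count stands for a transcript end and not for a stretch of gene length. The 4 groups were tumours of mice labelled NGS given ACSS2i (n = 3), NGS given vehicle (n = 3), C57BI/6 mice given ACSS2i (n = 4) and C57BI/6 given vehicle (n = 4), the hosts being written NGS and C57BI6 here. ACSS2i is an inhibitor of the enzyme that makes acetyl-CoA from acetate. The title of the series places the work in triple negative breast cancer. Not given in the sources used here are the tumour line, the number of clones, the age of the mice, the dose and the time of treatment. The design line mentions Bmal1 status, which no label assigns to a library. No label says that the replicates came from separate animals, so p-values measure the spread between these samples.

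Library totals were 17645504 to 20344809 counts in C57BI6 tumours and 2846161 to 4701101 in NGS tumours, so host, depth and any batch that followed the host cannot be told apart. NGS ACSS2i replicate 2 was the shallowest library and stood apart in several of the genes below. Krt8, a keratin of simple epithelia, averaged 219, 208, 342 and 318 CPM (a gene's counts scaled to a fixed library total) in NGS ACSS2i, NGS vehicle, C57BI6 ACSS2i and C57BI6 vehicle tumours, while Epcam, an epithelial adhesion protein, averaged 0.308, 2.61, 0.378 and 0.0803 CPM. Of 10 epithelial and keratinocyte genes tested, 7 were lower and 2 higher in C57BI6 by edgeR's test, averaged over the treatments. Over all genes 22.3% were lower and 28.1% higher. Of the 10, Krt8 was among those higher and Epcam among those lower by that test. DESeq2 called 5 of the 10 and limma voom 7. Krt14, a keratin of the same list, spanned 6.44 to 71.1 CPM in treated NGS tumours and 27.1 to 324 CPM in their vehicle group. No C57BI6 library had more than 0.432 CPM of it. The part of keratinocyte RNA in the values below was not tested. Cd3e, a T cell receptor subunit, was at 0 in every NGS library.

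Pfn2 was low in 3 of the groups and high in NGS vehicle tumours. It had 3.73, 4.92 and 5.20 CPM in NGS ACSS2i tumours, against 15.3, 19.1 and 14.3 CPM in NGS vehicle tumours. In C57BI6 tumours it had 4.13, 4.13, 5.29 and 4.38 CPM with ACSS2i, against 4.38, 3.66, 2.76 and 4.02 CPM with vehicle. Every NGS vehicle library lay above every library of the other 3 groups, and the 2 C57BI6 groups overlapped. The means were 4.62 ± 0.783 CPM in NGS ACSS2i and 16.2 ± 2.56 CPM in NGS vehicle (SD, n = 3 each), and in C57BI6 they were 4.48 ± 0.552 CPM with ACSS2i and 3.71 ± 0.697 CPM with vehicle (SD, n = 4 each).

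In the model of all 14 libraries the log2 fold change of Pfn2, ACSS2i over vehicle, was -1.86 ± 0.24 (SE) in NGS, or 3.62-fold lower, and 0.22 ± 0.19 in C57BI6. The difference of these 2 effects, C57BI6 minus NGS, was 2.07 ± 0.30. Leaving out each library in turn kept the NGS value between -1.96 and -1.70 and the difference between 1.93 and 2.18. Pfn2 was chosen by these same values, so their size may be overstated. The ranges and intervals given here describe the chosen values and are no separate evidence for them. Thinning all libraries to the smallest gave -1.65 in NGS, -0.09 in C57BI6 and 1.56 for the difference. The NGS values rest on 48 counts in the ACSS2i libraries and 215 in the vehicle libraries, for which the exact Poisson 95% intervals are 3.41 to 6.14 CPM and 14.1 to 18.5 CPM. These intervals cover counting error only. In bulk tumours fewer cells of a type and less RNA per cell cannot be told apart.

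**Figure D1:**
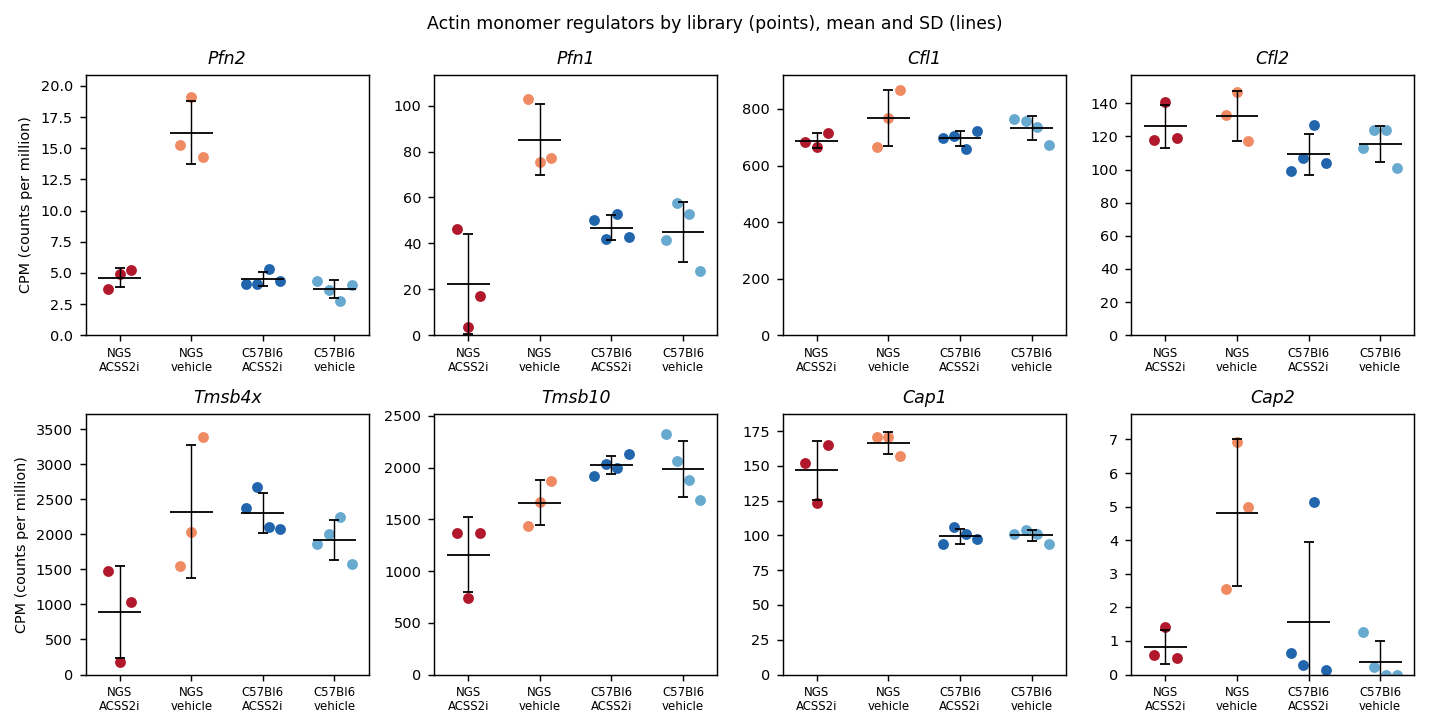
CPM of the 8 genes in each of the 14 libraries (points), with the group mean and SD (black lines), 1 panel per gene, each with its own axis from 0. Pfn2 sits at 14.3 to 19.1 CPM in NGS vehicle and at 2.76 to 5.29 CPM elsewhere, and NGS ACSS2i replicate 2 is the lowest point of Pfn1, Tmsb4x and Tmsb10.

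Summed markers of other cell types differed between the NGS groups in both directions. The sum of 10 nerve and glia genes ran from 52.7 to 70.5 CPM in NGS ACSS2i tumours, against 80.9 to 87 CPM in NGS vehicle tumours, and from 40.2 to 50.5 CPM in C57BI6 ACSS2i, against 36.6 to 46.1 CPM in C57BI6 vehicle. None of the 10 passed the test in NGS. The summed level of 10 fibroblast genes ran from 7300 to 7940 CPM in NGS ACSS2i, against 8910 to 9850 CPM in NGS vehicle; 3 of the 10 fell in NGS by edgeR's test, where 1.38% of all genes did: Dcn (log2 fold change -1.21, adjusted p = 0.0148), Postn (-0.48, adjusted p = 0.0329) and Thy1 (-1.27, adjusted p = 0.0431). In C57BI6 the fibroblast sum ran from 6240 to 7650 CPM with ACSS2i, against 5810 to 7130 CPM with vehicle. Of the 7 that did not pass in NGS, Col1a1 (0.34), Fap (0.27) and Pdgfra (0.17) were positive. Col1a2 (-1.01), Pdgfrb (-0.47), Lum (-0.42) and Col3a1 (-0.36) were negative, and the median of the 10 was -0.45. DESeq2 called 4 of the 10 in NGS and limma voom 1, where they called 10.1% and 0.156% of all genes. None of the 10 passed without NGS ACSS2i replicate 2; the Dcn call was also lost without NGS ACSS2i replicate 3, and the Postn and Thy1 calls were lost in most of the 14 fits that left out a library. The sum of 16 leukocyte genes lay the other way, from 1600 to 2060 CPM in NGS ACSS2i, against 1210 to 1550 CPM in NGS vehicle, and from 1840 to 2230 CPM in C57BI6 ACSS2i, against 1410 to 1690 CPM in C57BI6 vehicle. By edgeR 0 of the 16 passed in either host, where 2.69% of all genes passed in NGS and 0.312% in C57BI6. In C57BI6 11 of the 16 had an unadjusted p under 0.05, where 7.96% of all genes did. DESeq2 called 4 there and limma voom 7, where they called 1.95% and 2.48% of all genes. In NGS 5 had an unadjusted p under 0.05 (22.1% of all genes), with 4 called by DESeq2 (10.1%) and 0 by limma voom (0.156%). The sum of 8 endothelial genes averaged 217 CPM in NGS ACSS2i and 167 CPM in NGS vehicle, and these groups overlapped. The part of these cell types in the Pfn2 values was not tested.

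Pfn2 lies on the minus strand at chr3:57841895-57848079 and Pfn1 on the minus strand at chr11:70651850-70654644 (mm10, GENCODE M21), both protein coding. The 300 bases around the RefSeq start site of each profilin gene (GRCm38.p6, 250 before and 50 after the start) are shown because both profilins were lower with ACSS2i in NGS tumours while their start regions differ in base composition. Capitals mark the E-box letters CACGTG, the core that BMAL1 with its partner CLOCK is known to bind, searched on both strands.
Pfn2 at chr3:57847708-57848007, minus strand: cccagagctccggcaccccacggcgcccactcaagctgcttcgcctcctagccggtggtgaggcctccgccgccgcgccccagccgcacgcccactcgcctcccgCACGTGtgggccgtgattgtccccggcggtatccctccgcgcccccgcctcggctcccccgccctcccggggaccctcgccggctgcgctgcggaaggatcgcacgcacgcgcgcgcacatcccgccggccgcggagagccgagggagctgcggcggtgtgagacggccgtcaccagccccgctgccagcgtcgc
Pfn1 at chr11:70654601-70654900, minus strand: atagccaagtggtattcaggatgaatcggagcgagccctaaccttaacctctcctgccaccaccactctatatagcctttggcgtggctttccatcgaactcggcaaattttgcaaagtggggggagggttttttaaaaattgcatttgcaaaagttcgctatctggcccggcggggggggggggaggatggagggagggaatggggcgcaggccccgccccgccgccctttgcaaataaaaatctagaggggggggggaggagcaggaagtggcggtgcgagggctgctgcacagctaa
The Pfn2 window is 77.7% G and C with 45 CpG steps, against 57% and 14 for Pfn1, where the medians over all 32851 RefSeq windows are 52.7% and 7. The letters CACGTG occur in the Pfn2 window 145 bases before the start, and in 7.15% of all windows. All 8 members had a RefSeq window; the Pfn1 window does not hold these letters, and among the rest the Cfl2 window does. No member's window holds TATAAA, found in 13.6% of all windows, or the CArG box, the letters bound by serum response factor, found in 1.63%. These matches are a description of letters.

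Pfn1 was the only tested member that passed the threshold between the treatments, and it did so narrowly. It had 46.2, 3.51 and 17.3 CPM in NGS ACSS2i tumours, against 103, 75.3 and 77 CPM in NGS vehicle tumours. The groups did not overlap, and the ACSS2i libraries were spread widely, with 10 counts in replicate 2. Pfn1 fell in NGS (log2 fold change -1.95 ± 0.49 SE, adjusted p = 0.0485 by edgeR's quasi-likelihood test with Benjamini-Hochberg adjustment). The call was lost in all but 1 of the 14 fits that left out a library, with log2 fold changes from -3.00 to -1.46 and adjusted p from 0.00257 to 0.118; it held only without NGS ACSS2i replicate 1. It was also lost with limma voom (-2.16, adjusted p = 0.055) and with the NGS libraries alone (-1.94, edgeR adjusted p = 0.253). The call held with the DESeq2 test (-1.95, adjusted p = 0.0212). It also held with no filter, thinning, the replicate block and the other scalings, at edgeR adjusted p from 0.0209 to 0.0489.

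In C57BI6 tumours Pfn1 had 50, 41.7, 52.7 and 42.7 CPM with ACSS2i, against 41.4, 57.6, 53 and 28 CPM with vehicle, and the groups overlapped. The log2 fold change was -0.01 ± 0.38 (edgeR adjusted p = 1), with a 95% interval of -0.82 to 0.81. The difference between the hosts' effects was 1.95 ± 0.62 and did not pass (edgeR adjusted p = 0.231; 0.0365 without NGS ACSS2i replicate 1, where it was 2.99). This difference shares its direction with that of Pfn2. Within the NGS ACSS2i group Pfn1 was lowest in replicate 2, with 10 counts. Pfn2 had 13, 14 and 21 counts in NGS ACSS2i replicates 1, 2 and 3, too few to rank these libraries by.

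The share of Pfn2 in the counts of both profilins varied most in NGS ACSS2i tumours. It was 7.47, 58.3 and 23.1% in NGS ACSS2i libraries, against 12.9, 20.2 and 15.6% in NGS vehicle libraries. In C57BI6 it ran from 7.63 to 9.32% with ACSS2i, against 4.95 to 12.6% with vehicle. The NGS ACSS2i shares lay on both sides of the NGS vehicle range, and the highest share rests on 14 counts of Pfn2 and 10 of Pfn1.

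**Figure D2:**
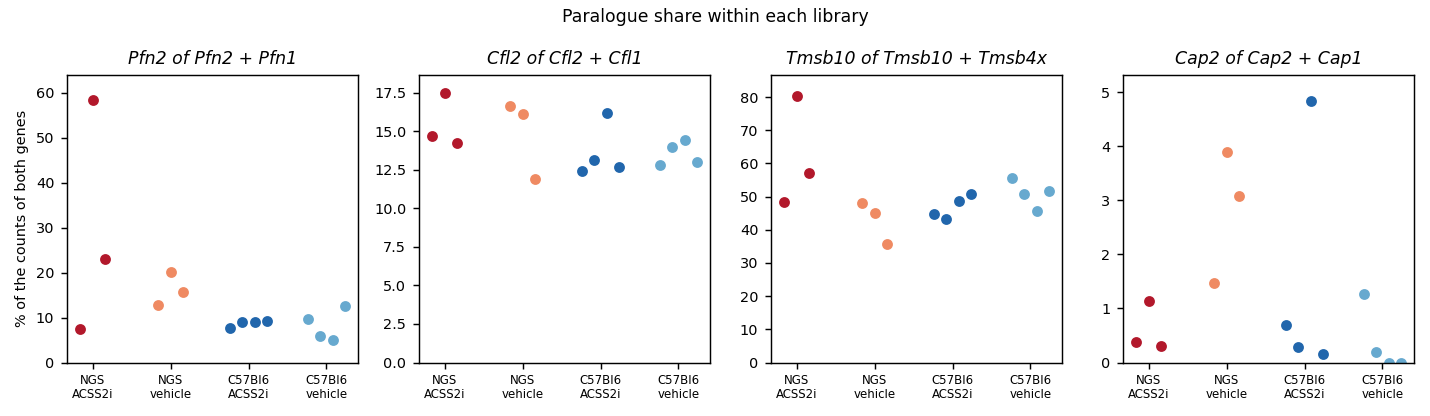
Share of the first gene in the counts of a paralogue pair, in %, in each of the 14 libraries (points), for 4 pairs and 4 groups. The Pfn2 share reaches 58.3% in NGS ACSS2i replicate 2 and stays at 20.2% or below in every vehicle library.

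The thymosins were lower in NGS ACSS2i tumours without passing the test. Tmsb4x had 1470, 180 and 1030 CPM in NGS ACSS2i, against 1550, 2030 and 3380 CPM in NGS vehicle, so the groups did not overlap (log2 fold change -1.42 ± 0.48 SE, edgeR adjusted p = 0.109). Tmsb10 had 1370, 739 and 1370 CPM in NGS ACSS2i, against 1440, 1670 and 1870 CPM in NGS vehicle, again without overlap (-0.56 ± 0.18, edgeR adjusted p = 0.0979). Replicate 2 was the lowest of its group in both. Without NGS ACSS2i replicate 2 the log2 fold changes were -0.93 for Tmsb4x and -0.31 for Tmsb10, and without NGS ACSS2i replicate 1 both passed (-1.99, edgeR adjusted p = 0.0297, and -0.70, edgeR adjusted p = 0.0427).

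In C57BI6 tumours Tmsb4x had 2380, 2670, 2100 and 2070 CPM with ACSS2i, against 1860, 2000, 2240 and 1570 CPM with vehicle (0.20 ± 0.41, edgeR adjusted p = 0.981). Tmsb10 had 1920, 2030, 2000 and 2130 CPM with ACSS2i, against 2320, 2060, 1880 and 1690 CPM with vehicle (-0.04 ± 0.16, edgeR adjusted p = 0.999). Both pairs of groups overlapped. The differences between the hosts' effects were 1.63 ± 0.63 for Tmsb4x (edgeR adjusted p = 0.292) and 0.52 ± 0.24 for Tmsb10 (edgeR adjusted p = 0.355). Tmsb10 has a near-identical copy in the annotation, Gm9844, with 3084 counts over all libraries against 339539 for Tmsb10. The copies held 0.0148 to 0.334% of the counts of Tmsb10 and its copies in NGS libraries, and 0.7 to 1.23% in C57BI6 libraries.

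The cofilins did not pass in either host. Cfl1, the cofilin of most tissues, had 684, 664 and 715 CPM in NGS ACSS2i tumours, against 667, 768 and 867 CPM in NGS vehicle tumours (-0.20 ± 0.10, edgeR adjusted p = 0.235). In C57BI6 it had 697, 706, 659 and 721 CPM with ACSS2i, against 766, 758, 735 and 674 CPM with vehicle (-0.14 ± 0.08, edgeR adjusted p = 0.802). The 95% interval of the difference between the hosts' effects was -0.21 to 0.34 on the log2 scale. Cfl2, the cofilin of muscle, averaged 126 ± 12.8 CPM in NGS ACSS2i and 132 ± 15.1 CPM in NGS vehicle (SD, n = 3 each), and in C57BI6 109 ± 12.5 CPM with ACSS2i and 115 ± 11.1 CPM with vehicle (SD, n = 4 each). A processed copy of Cfl1 in the annotation, Gm6180, had 0 counts. Arcn1, a protein-coding gene, matched Cfl1 over a stretch of 140 bases at 95.7% identity. It had 17351 counts over all libraries, against 125939 for Cfl1. The log2 fold changes of Cfl2 were -0.12 ± 0.13 in NGS and -0.14 ± 0.11 in C57BI6 (edgeR adjusted p = 0.645 and 0.888).

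Cap1, the widely expressed cyclase-associated protein, had 152, 123 and 165 CPM in NGS ACSS2i tumours, against 171, 171 and 157 CPM in NGS vehicle tumours (-0.22 ± 0.11, edgeR adjusted p = 0.234). In C57BI6 it had 93.5, 106, 101 and 97.2 CPM with ACSS2i, against 101, 104, 101 and 94.1 CPM with vehicle (-0.07 ± 0.09, edgeR adjusted p = 0.956). The treatment groups overlapped in both hosts, and the clearer separation was between the hosts.

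Cap2, the form of heart and skeletal muscle, had few counts, and several libraries were near 0. It had 2, 4 and 2 counts in NGS ACSS2i libraries, against 12, 30 and 21 in NGS vehicle libraries, or 0.574, 1.41 and 0.496 CPM against 2.55, 6.91 and 4.99 CPM. In C57BI6 it had 0.652, 0.295, 5.13 and 0.148 CPM with ACSS2i, against 1.28, 0.212, 0 and 0 CPM with vehicle. The NGS groups did not overlap, yet the log2 fold change of -2.64 ± 1.48 did not pass (edgeR adjusted p = 0.312), nor did 1.98 ± 1.11 in C57BI6 (edgeR adjusted p = 0.757). The C57BI6 value was -0.09 without C57BI6 ACSS2i replicate 3.

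Skeletal muscle RNA was highest in the libraries with the highest Cap2, though the order did not hold within every group. The summed level of 18 muscle genes ran from 71.3 to 916 CPM in NGS ACSS2i, against 443 to 8310 CPM in NGS vehicle, and from 89.8 to 3760 CPM in C57BI6 ACSS2i, against 76.3 to 1320 CPM in C57BI6 vehicle. The 3 libraries with the highest muscle sums, NGS vehicle replicates 2 and 3 and C57BI6 ACSS2i replicate 3, were the 3 with the highest Cap2. Within NGS ACSS2i, replicate 2 had the lowest muscle sum, 71.3 CPM, and the highest Cap2, 1.41 CPM on 4 counts. Replicate 1 of that group had the highest muscle sum, 916 CPM, with 0.574 CPM of Cap2. None of the 18 genes passed the test for the treatment in either host. Over all genes edgeR called 2.69% in NGS and 0.312% in C57BI6. All 18 had negative log2 fold changes in NGS and positive ones in C57BI6, with medians of -3.80 and 1.42. For the difference between the hosts' effects the median was 5.68, and 0 of 18 passed (0.0173% of all genes). An unadjusted p under 0.05 was found there for 9 of the 18, and for 13.8% of all genes. The part of muscle RNA in the Cap2 values was not tested. In 3 of the 4 groups the library with the highest muscle sum also had the highest Pfn2. These were NGS vehicle replicate 2 with 8310 CPM of muscle genes and 19.1 CPM of Pfn2, C57BI6 ACSS2i replicate 3 with 3760 and 5.29 CPM, and C57BI6 vehicle replicate 1 with 1320 and 4.38 CPM. In NGS ACSS2i the highest muscle sum, 916 CPM in replicate 1, came with the lowest Pfn2 of that group, 3.73 CPM on 13 counts. The part of muscle RNA in the Pfn2 values was not tested.

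**Figure D3:**
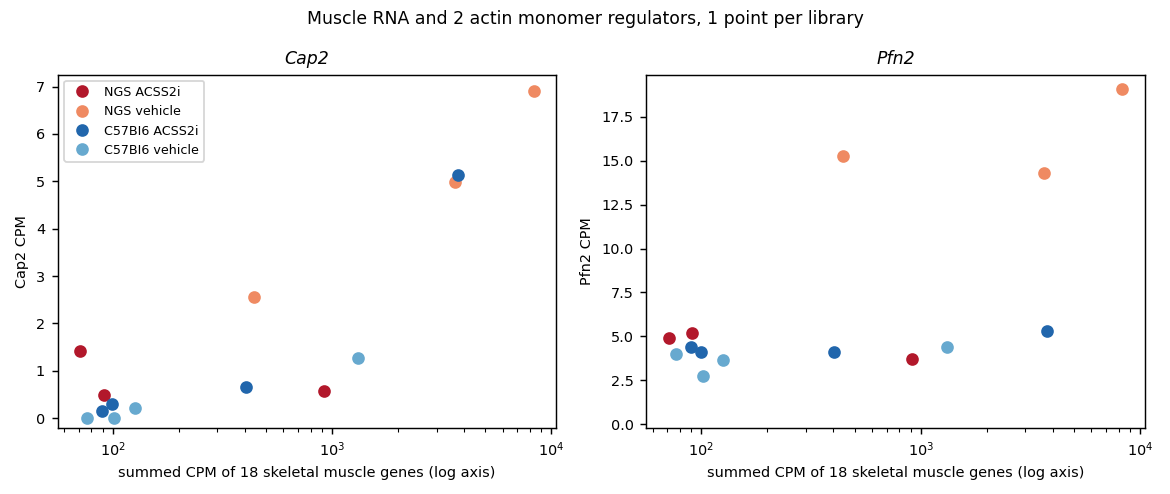
Cap2 (left) and Pfn2 (right) in CPM against the summed CPM of 18 skeletal muscle genes on a log axis, 1 point per library, coloured by group. The 3 libraries with the most muscle RNA, at 3640 CPM or more, have the 3 highest Cap2 values, and the library with the highest muscle sum, NGS vehicle replicate 2 at 8310 CPM, also has the highest Pfn2, 19.1 CPM.

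Across the set, 1 of the 7 tested members passed in NGS, where 1.38% of all genes were lower and 1.32% were higher (2.69% in either direction). All 7 log2 fold changes were negative in NGS, as was that of Pfn2, and the median of the 7 was -0.56, against -0.01 over all genes tested. That median was -0.31 without NGS ACSS2i replicate 2. With all libraries thinned to the smallest, Cap2 was no longer tested. The median there, taken without Cap2, was -0.36, so it is not a like comparison with -0.56. An unadjusted p under 0.05 was found for 3 of 7, as for 22.1% of all genes. DESeq2 called 1 of 7 in NGS and limma voom 0, where they called 10.1% and 0.156% of all genes. Groups did not overlap for 5 of the 8 members (Pfn1, Pfn2, Tmsb4x, Tmsb10 and Cap2), each lower in ACSS2i, where 8.56% of all genes did so and 10.2% lay higher without overlap; Pfn2 is among the 5 by choice. In C57BI6 0 of 7 passed, where 0.312% of all genes did (0.26% higher and 0.052% lower), and 0 of 8 had groups without overlap, where 7.05% of all genes lay higher and 1.89% lower; the unadjusted p was under 0.05 for 0 of 7 and for 7.96% of all genes, and DESeq2 and limma voom also called 0, where they called 1.95% and 2.48% of all genes. For the difference between the hosts' effects 0 of 7 passed, where 0.0173% of all genes did; 4 of 7 had an unadjusted p under 0.05, as did 13.8% of all genes, and DESeq2 and limma voom called 0 of 7, where they called 1.87% and 0% of all genes. With library totals as the only scaling the NGS calls over all genes split into 331 higher and 199 lower, against 228 higher and 238 lower here.

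**Figure D4:**
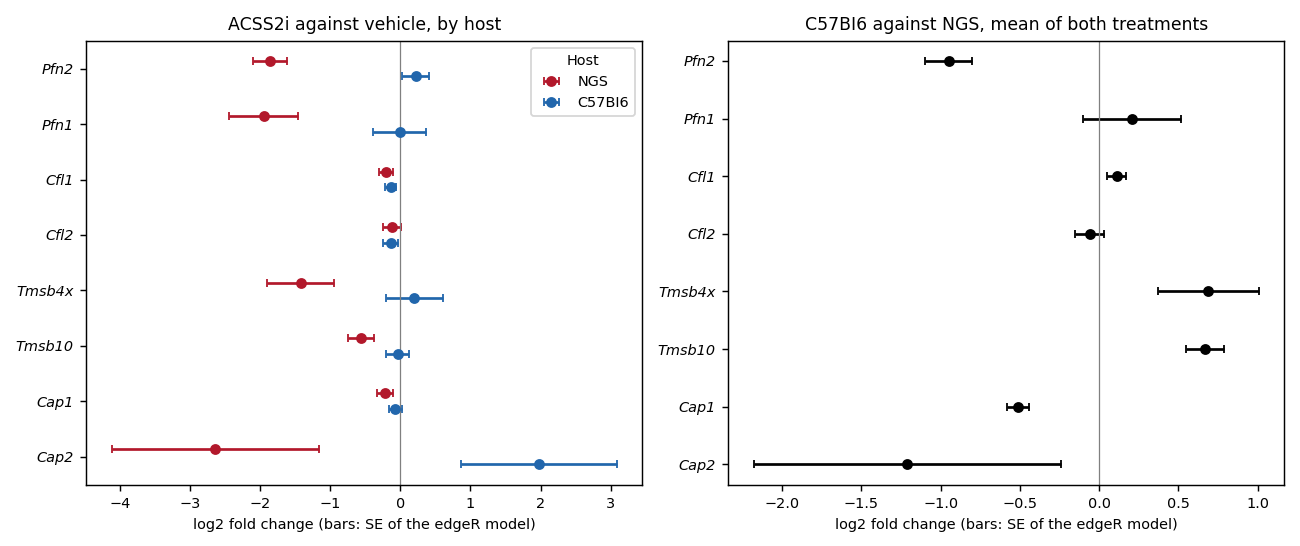
Log2 fold changes of the 8 genes with the SE of the edgeR model: ACSS2i over vehicle in NGS (red) and in C57BI6 (blue) on the left, and C57BI6 over NGS averaged over the treatments on the right. Every NGS value lies below 0, from -2.64 for Cap2 to -0.12 for Cfl2, and on the right Tmsb10 at 0.67 and Cap1 at -0.51 passed the test.

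Between the hosts, averaged over the treatments, Tmsb10 was higher and Cap1 lower in C57BI6. Tmsb10 averaged 2000 CPM in C57BI6 and 1410 CPM in NGS (log2 fold change 0.67 ± 0.12 SE, edgeR adjusted p = 0.000373), and Cap1 averaged 99.6 CPM in C57BI6 and 157 CPM in NGS (-0.51 ± 0.07, edgeR adjusted p = 2.79e-05). Every C57BI6 library had less Cap1 than every NGS library, which made it 1 of 8 members without overlap, where 11% of all genes lay lower without overlap and 11.2% higher. Both calls held in all 14 fits that left out a library. They stand against a background in which 50.4% of all genes passed (28.1% higher and 22.3% lower), so 2 of 7 is no larger a share than that of all genes. With library totals as the only scaling that split was 3763 higher and 5187 lower, against 4863 higher and 3851 lower, and the median of all genes was -0.10 in place of 0.04.

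Cap1 and its neighbour Ppt1, a lysosomal thioesterase gene on the opposite strand, overlap by 129 bases at their 3′ ends, where this kit reads. Whether the counting used strand is not given, so the counts of the 2 genes may not be separate. Ppt1 moved the same way as Cap1 between the hosts (-0.36 ± 0.08, edgeR adjusted p = 0.00197), while in NGS it had 0.31 ± 0.13 (edgeR adjusted p = 0.171) with ACSS2i, opposite in sign to Cap1.

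The remaining members did not pass between the hosts. Tmsb4x had a log2 fold change of 0.69 ± 0.32 (edgeR adjusted p = 0.0849), Pfn1 0.21 ± 0.31 (0.604), Cfl1 0.11 ± 0.06 (0.149), Cfl2 -0.06 ± 0.09 (0.591) and Cap2 -1.21 ± 0.97 (0.319), with edgeR adjusted p in parentheses. Tmsb4x passed with limma voom (0.73, adjusted p = 0.0175), with no filter on low counts (0.71, edgeR adjusted p = 0.0465) and when NGS vehicle replicate 3 (0.88), NGS ACSS2i replicate 1 (0.98) or NGS ACSS2i replicate 2 (0.45) was left out. Pfn1 passed without NGS ACSS2i replicate 1 (0.74, edgeR adjusted p = 0.0281), Cfl1 without NGS vehicle replicate 3 (0.17, edgeR adjusted p = 0.0232) and Cap2 without C57BI6 ACSS2i replicate 3 (-2.24, edgeR adjusted p = 0.0391) and with limma voom (-2.44, adjusted p = 0.0437). Cfl1 turned to -0.02 with library totals as the only scaling. Pfn2 had -0.95 ± 0.15, which averages NGS vehicle tumours with high Pfn2 and NGS ACSS2i tumours at 3.73 to 5.20 CPM.

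The rest of the actin machinery was read from 8 lists of filament factors, with 128 genes tested. In NGS 0 were higher and 2 lower with ACSS2i, or 1.56% against 2.69% of all genes, and 42 had an unadjusted p under 0.05, a larger share than the 22.1% of all genes. Arpc1a, a subunit of the Arp2/3 complex that branches filaments, averaged 36.3 ± 8.6 CPM in NGS ACSS2i and 58.6 ± 8.2 CPM in NGS vehicle (-0.73 ± 0.16, edgeR adjusted p = 0.027). Pls3, the filament bundler plastin 3, averaged 208 ± 17.7 CPM in NGS ACSS2i and 281 ± 20.3 CPM in NGS vehicle (-0.48 ± 0.10, edgeR adjusted p = 0.0238; SD, n = 3 each). Neither call held without NGS ACSS2i replicate 2 or NGS vehicle replicate 3; the Arpc1a call was also lost without NGS vehicle replicate 2, and the Pls3 call without NGS vehicle replicate 1 or NGS ACSS2i replicate 3. With the NGS libraries alone both had an edgeR adjusted p of 0.243. DESeq2 called 18 of the 128 and limma voom 0, where they called 10.1% and 0.156% of all genes. In C57BI6 0 of 128 passed, with 10 at an unadjusted p under 0.05 (7.96% of all genes), 3 by DESeq2 (1.95%) and 4 by limma voom (2.48%).

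**Figure D5:**
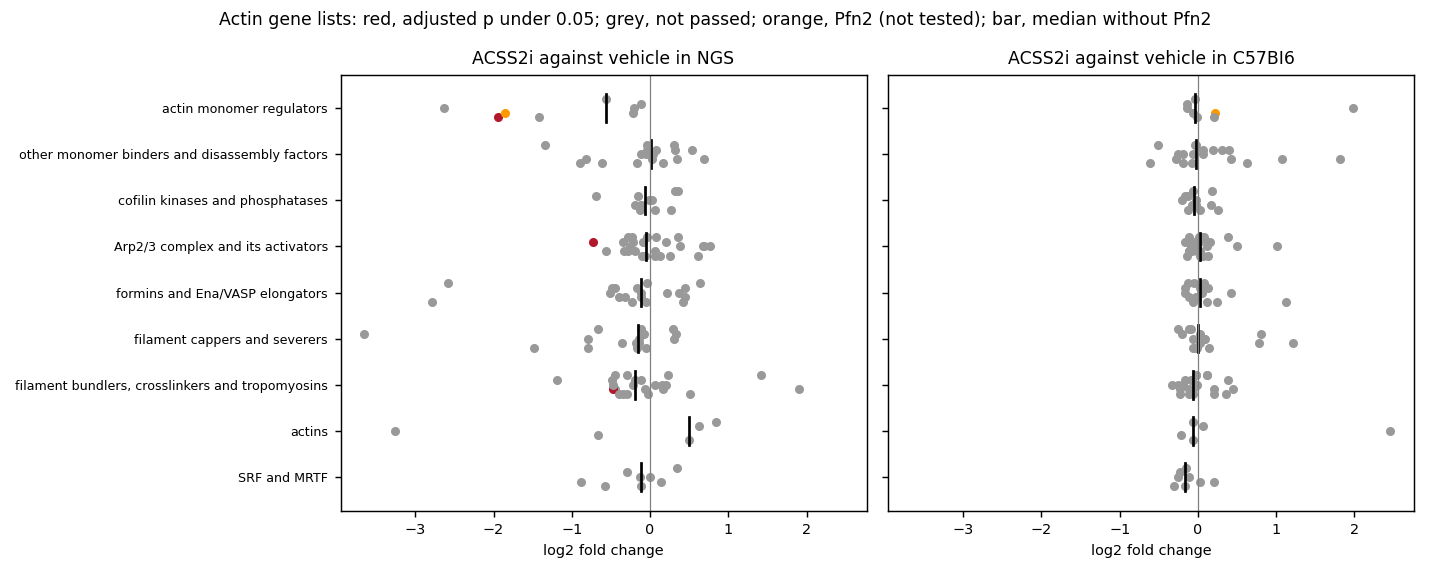
Log2 fold changes of ACSS2i over vehicle in NGS (left) and C57BI6 (right) for every tested gene of the 8 members and of 8 lists of actin factors, 1 point per gene, with the median of each list as a black bar. Red points passed the test and orange is Pfn2, which was not tested and is left out of the medians; the median of the other 7 members is -0.56 in NGS and -0.04 in C57BI6.

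Partners of profilin were among the genes that did not pass for the treatment. Of 19 formins and Ena/VASP elongators tested, 0 passed in NGS and 0 in C57BI6, with medians of -0.12 and 0.03. Over all genes edgeR called 2.69% in NGS and 0.312% in C57BI6, so 0 in each short list here is near that share. In NGS DESeq2 called 3 of the 19 (10.1% of all genes) and limma voom 0 (0.156%). In NGS 9 of the 19 had an unadjusted p under 0.05, where 22.1% of all genes did, and in C57BI6 0 of 19, where 7.96% did. Of 12 cofilin kinases and phosphatases 0 passed in either host. Actb, the cytoplasmic beta actin that these proteins bind, averaged 18700 ± 4090 CPM in NGS ACSS2i and 12900 ± 2270 CPM in NGS vehicle (SD, n = 3 each; log2 fold change 0.50, edgeR adjusted p = 0.0798). Actg1, the cytoplasmic gamma actin, averaged 2680 ± 1430 CPM in NGS ACSS2i and 4090 ± 572 CPM in NGS vehicle (-0.66, edgeR adjusted p = 0.212), and Acta1, the actin of skeletal muscle, had -3.26 (edgeR adjusted p = 0.43). None of the 5 actins tested passed. The last list held Srf, a transcription factor of actin genes, its coactivators Mrtfa and Mrtfb, which sense the monomer pool, and 5 further genes (Vcl, Zyx, Fhl2, Tgfb1i1 and Scai); 0 of these 8 passed in either host.

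Between the hosts 31 of the 128 were higher and 32 lower in C57BI6, or 49.2% against 50.4% of all genes. Enah, an Ena/VASP protein that recruits profilin, averaged 247 ± 16.3 CPM in C57BI6 ACSS2i and 137 ± 21 CPM in NGS ACSS2i (host log2 fold change 1.19 ± 0.11, edgeR adjusted p = 4.55e-07). Vasp of the same family rose by 0.69 ± 0.09 (edgeR adjusted p = 1.31e-05), while the formin Fhod3 had -0.79 ± 0.12 (edgeR adjusted p = 9.26e-05). Wasl, which switches on Arp2/3, had 0.97 ± 0.11 (edgeR adjusted p = 3.38e-06). Acta2, smooth muscle actin, fell to 42.4 ± 21.8 CPM in C57BI6 ACSS2i, against 293 ± 88.2 CPM in NGS ACSS2i (host log2 fold change -2.39 ± 0.22, edgeR adjusted p = 6.38e-07), and Actb had -0.69 ± 0.10 (edgeR adjusted p = 4.01e-05). Srf had 0.67 ± 0.13 (edgeR adjusted p = 0.000604).

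Pfn4, a testis profilin outside the 8, was higher in C57BI6. It averaged 2.43 ± 0.152 CPM in C57BI6 ACSS2i (n = 4) and 0.117 ± 0.203 CPM in NGS ACSS2i (n = 3), and 2.65 ± 0.874 CPM in C57BI6 vehicle and 0.148 ± 0.128 CPM in NGS vehicle (host log2 fold change 4.41 ± 0.51, edgeR adjusted p = 5.68e-06). The NGS values are near 0 counts in shallow libraries. Pfn3 was at 0 in all 4 groups.

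The 5 genes most like Pfn2 over the 14 libraries, out of 11279 whose mean log2 CPM was at least 1, were Calhm5, Trpc1, Zfp422, Prpf18 and Pnpla8, with Pearson r of log2 CPM from 0.87 to 0.90. They were picked for this likeness, so their levels are a description with no test, and the libraries share group, host and depth. Trpc1, a cation channel, averaged 2.93 CPM in NGS ACSS2i and 7.88 CPM in NGS vehicle, and in C57BI6 3.09 CPM with ACSS2i and 3.31 CPM with vehicle. Calhm5 averaged 2.58 CPM in NGS ACSS2i and 6.73 CPM in NGS vehicle, and in C57BI6 2.54 CPM with ACSS2i and 2.19 CPM with vehicle. With the group means taken out, the 5 most alike were Phkb, Crot, Usp45, Golga3 and Sorbs2, from 0.87 to 0.98.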

How the data were processed

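Tumour RNA was counted per gene, and the deposited values are raw whole-number counts, made from 200 ng of total RNA with the Lexogen QuantSeq kit, per the labels' protocols. mm10, RSEM 1.2.3 and DESeq2 are named, without roles, per the submitters' processing notes; the aligner and the annotation are not given in the sources used here. Symbols came from GENCODE M21 (51596 genes matched, 193 did not). The counts were used as deposited in edgeR 4.0.16 (R 4.3.3): filterByExpr, TMM scaling, 1 quasi-likelihood model of the 4 groups, two-sided tests and Benjamini-Hochberg adjustment over 17294 genes with a threshold of 0.05. ACSS2i was compared with vehicle in each host, along with the difference of those effects and C57BI6 against NGS averaged over treatments. The common biological coefficient of variation was 0.236. CPM (counts per 10 to the 6th power) are counts over library totals; means have SDs across libraries. The method was tested on simulated data. DESeq2 1.42.0, limma 3.58.1, other scalings, no filter, thinning, a replicate block, each host alone and leaving out each library were alternatives. The sources describe no molecular identifiers.

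The members and gene lists were chosen with earlier results of these data known. In each list up to 4 genes with the smallest p among those passing were candidates for naming in a comparison, besides the 8 members and the 5 genes most like Pfn2; not all are given, and genes that did not pass, Ppt1, Krt8, Epcam and Pfn3 are named as context, chosen after their values were seen. Near copies of the members were sought with blastn among the transcripts.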

Additional observations from a re-analysis of the deposited data

Results flagged for a closer look

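Sets of 4 libraries were checked for a value far from the others, by the gap to the nearest library over the whole range; above Dixon's 95% critical value it stands apart, and chance gives about 1 such set in 20. Of 46 sets, 5 stood apart. Cap2 in C57BI6 ACSS2i (0.899) and in C57BI6 vehicle (0.835) did so, as did the summed skeletal muscle genes in C57BI6 ACSS2i (0.914) and in C57BI6 vehicle (0.96). In each pair it was the same library, C57BI6 ACSS2i replicate 3 and C57BI6 vehicle replicate 1. The summed filament cappers and severers stood apart in C57BI6 ACSS2i (0.92), with replicate 1 at 1550 CPM and the other libraries at 1610 CPM. Groups of 3 libraries were not checked.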

How the results depend on the processing

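Counts of genes passing moved widely with the test. In NGS 466 genes passed, against 1539 with the DESeq2 test, 27 with limma voom, 9 with the NGS libraries alone, and 118 to 1743 when each library was left out (118 without NGS ACSS2i replicate 2, 1743 without replicate 1). In C57BI6 54 passed, against 330 with DESeq2, 429 with limma voom, 108 with library totals, 112 without a filter, 25 thinned to the smallest library, 266 with the C57BI6 libraries alone and 15 to 122 with a library left out. For the difference of effects 3 passed, against 272 with DESeq2, 0 with limma voom, 7 without a filter and 1 to 62 with a library left out. Between the hosts 8714 passed, and 8077 to 8784 with a library left out. The cause of these shifts was not tested.

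The main model did not pair samples by replicate number. Deviations from the group means correlated from -0.0022 to 0.095 in NGS and from -0.14 to 0.15 in C57BI6 between same-numbered libraries. Between other-numbered libraries they correlated from -0.124 to 0.081 in NGS and from -0.268 to 0.349 in C57BI6. These ranges overlap, and so few libraries cannot settle whether the numbers pair the samples. With the replicate block 254 genes passed in NGS, 9 in C57BI6 and 4 for the difference.

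Values of members that did not pass changed sign in C57BI6: Pfn1 was 0.01 with DESeq2 size factors, the DESeq2 test and no filter, 0.06 with library totals, 0.17 thinned, 0.04 with the replicate block and 0.02 with one host alone, and -0.18 to 0.14 with a library left out; Tmsb10 was 0.02 with library totals, 0.01 thinned and -0.11 to 0.06 with a library left out; Cap1 was 0.02 thinned; Cap2, at 1.98, was -0.09 to 4.23 with a library left out. For the difference Cfl2 was 0.04 with limma voom and -0.11 to 0.07 with a library left out, and Cfl1 -0.04 to 0.16. Between the hosts Cfl1 was -0.02 with library totals, and Pfn1 -0.03 to 0.74 with a library left out. The effect on Pfn2 of thinning to the smallest library was -1.65 in NGS, -0.09 in C57BI6 and 1.56 for the difference, with few counts left. The depth of the NGS libraries limits what can be said of Cap2 and Pfn2, and the median SD of log2 CPM was 0.208 and 0.168 in the NGS groups, against 0.098 and 0.118 in the C57BI6 groups.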
